A study of Hordeum vulgare with 12 samples.

Results

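The miRNA families miR530, miR6196, miR6213, miR9773 and miR1862 (MIR530, MIR6196, MIR6213, MIR9773 and MIR1862 in miRBase, the database of miRNA sequences) were followed through 12 small RNA libraries from barley (Hordeum vulgare) line Rolap. They were picked because, in an earlier look at these libraries, they were scarce and held most of their reads in shoot, so the organ difference below is a description without a test. A sequence was counted as a member when every miRBase name attached to it carried one of these 5 family numbers. This gave 115 distinct sequences of 6279 in all, and 5 families of 210. Of the members, 106 were found in shoot, 30 in root and 21 in both organs. Another 3 sequences, with 3 reads in all, also named miR812 beside miR1862 and were left out.

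Plants were grown for 23 days in a soil with 8 mg P per kg, either as it was (low-Pi) or with an addition of 60 mg P to each kg (control). Each of the 4 groups (shoot low-Pi, shoot control, root low-Pi, root control) had 3 libraries, 1 for each pot of 3 plants. All plants were of the same line, and whole organs were used, so each library averages over the cell types of a root or a shoot. The question was which small RNAs change in each organ when phosphate is short.

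Plant miRNAs are cut by Dicer-like enzymes from the stem of a hairpin precursor and guide Argonaute proteins to complementary mRNAs. The bases near the 5′ end, called the seed here, contribute strongly to target pairing, and the first base helps decide which Argonaute binds the miRNA. miR530 is found in many flowering plants, and in rice it lowers grain yield by repressing the transcription factor gene OsPL3. The other families are known from cereals: the miRBase entries matched here are from barley for miR6196 and miR6213, from wheat for miR9773 and from rice for miR1862. Targets of these 4 are not described here.

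The sequences that carried most reads in each family are shown because the later results turn on their ends and lengths. The deposited tables write T for U, and the capitals mark the seed, bases 2 to 8 from the 5′ end.
miR530, leading sequence: cTGCATTTgcacctgcaccta
miR530, rice mature sequence: tGCATTTGcacctgcaccta
miR6196, leading sequence: aGGACGAGgagatggagagga
miR6213, leading sequence: aTACAGATtgctacagactggtct
miR6213, shorter form: tACAGATTgctacagactggtct
miR9773, leading sequence: tTTGTTTTtatgttattttgtgaag
miR9773, wheat mature sequence: tTTGTTTTtatgttattttgtgaa
miR9773, shifted form: tTGTTTTTatgttattttgtgaaga
miR1862, leading sequence: aTTTTGGGacggagggagtat
miR1862, shifted form: tTATTTTGggacggagggagt
No seed was shared between the 5 families. Outside them, no sequence with 10 or more reads carried the seed of a listed sequence, leaving aside the rice mature miR530 sequence, which was not compared. The miR1862 seed TTTTGGG was in 2 other sequences with 6 reads, and TATTTTG in 1 with 1 read. The comparison covers seeds only, since a miR1122 sequence tested in shoot contains the whole of a 19 nt miR1862 sequence further from its 5′ end. The rice mature miR530 sequence, with 11 reads, is shown although it had fewer than 20, because the leading sequence differs from it by its first base.

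The libraries held between 7470998 and 17614581 reads of 18 to 25 nt, and values are given as reads or as RPM, reads per 1000000 reads of the library. 1 library stood apart from its replicates. Replicates were compared by the chi-square of their counts divided by its degrees of freedom, over annotated sequences with enough reads in the pair compared. The quotient ran from 5.61 to 32.1, but reached 89.7 and 107 between shoot low-Pi replicate 6 and replicates 4 and 5. Values that shoot low-Pi replicate 6 moved by over 1.5 times are given with and without it. The share of reads matching miRBase also differed between organs, from 5.01% to 6.39% in shoot and from 0.940% to 1.91% in root.

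All 5 families were higher in shoot than in root in RPM. Every shoot library lay above every root library in 5 of 5, against 52 of 101 families (51.5%) with at least 30 reads. In bulk organs, fewer cells that make a miRNA and less of it per cell cannot be told apart. Among the 181 families with shoot reads, miR9773 ranked 32, miR530 ranked 41, miR6196 ranked 45, miR6213 ranked 51 and miR1862 ranked 53 by mean shoot RPM. They were thus in the upper part of the list by rank, but none exceeded 56.2 RPM in any library.

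miR530 had 83, 77 and 60 reads in the shoot control libraries (replicates 16, 17 and 18) and 208, 157 and 99 in the shoot low-Pi libraries (replicates 4, 5 and 6). In root it had 0, 0 and 1 reads under control and 1, 3 and 2 under low-Pi. Over all libraries it had 7 root reads against 684 in shoot. The shoot to root ratio of pooled RPM was 164 under control (exact 95% interval 29.1 to 6491, from 1 root read) and 98.7 under low-Pi (45.0 to 270). These intervals, like those of the other families, cover counting error only. They leave out the spread between pots, and reads copied by PCR are not independent molecules.

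miR6196 had 78, 74 and 58 reads in shoot control and 65, 62 and 35 in shoot low-Pi. Its root reads were 1, 1 and 0 under control and 1, 1 and 1 under low-Pi. The pooled ratio of shoot to root was 78.1 (21.3 to 649) under control and 68.9 (23.2 to 338) under low-Pi. The wide intervals reflect 2 and 3 root reads.

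miR6213 had 20, 23 and 17 reads in shoot control, 15, 20 and 26 in shoot low-Pi, 9, 2 and 2 in root control and 0, 1 and 1 in root low-Pi. The 3 root control libraries were all above the 3 root low-Pi libraries, a separation seen in 32 of the 162 families with root reads (19.8%), in either direction. The shoot to root ratio was 3.43 (1.86 to 6.82) under control and 38.9 (10.3 to 329) under low-Pi. These intervals leave out the spread between pots, and 9 of the 13 root control reads came from replicate 16. The intervals did not overlap, which is no test of a difference between conditions. The shoot level was 1.66 ± 0.200 RPM under control and 1.71 ± 0.721 RPM under low-Pi (SD, n = 3).

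miR9773 was the most abundant of the 5, with 113, 90 and 140 reads in shoot control and 209, 202 and 594 in shoot low-Pi. Root control libraries held 13, 3 and 5 reads and root low-Pi libraries 7, 7 and 6. The 594 reads belonged to shoot low-Pi replicate 6, at 56.2 RPM against 14.3 and 16.6 RPM in replicates 4 and 5. The shoot to root ratio was 12.1 (7.82 to 19.9) under control and 64.1 (41.3 to 105) under low-Pi. Without shoot low-Pi replicate 6 the latter was 36.6 (23.4 to 60.5), an omission chosen after seeing the data.

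miR1862 had 39, 22 and 18 reads in shoot control, 14, 17 and 11 in shoot low-Pi, 1, 5 and 2 in root control and 5, 5 and 2 in root low-Pi. It was the family least separated between organs under low-Pi. The shoot to root ratio was 7.34 (3.55 to 17.6) under control and 4.47 (2.31 to 9.32) under low-Pi.

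**Figure D1:**
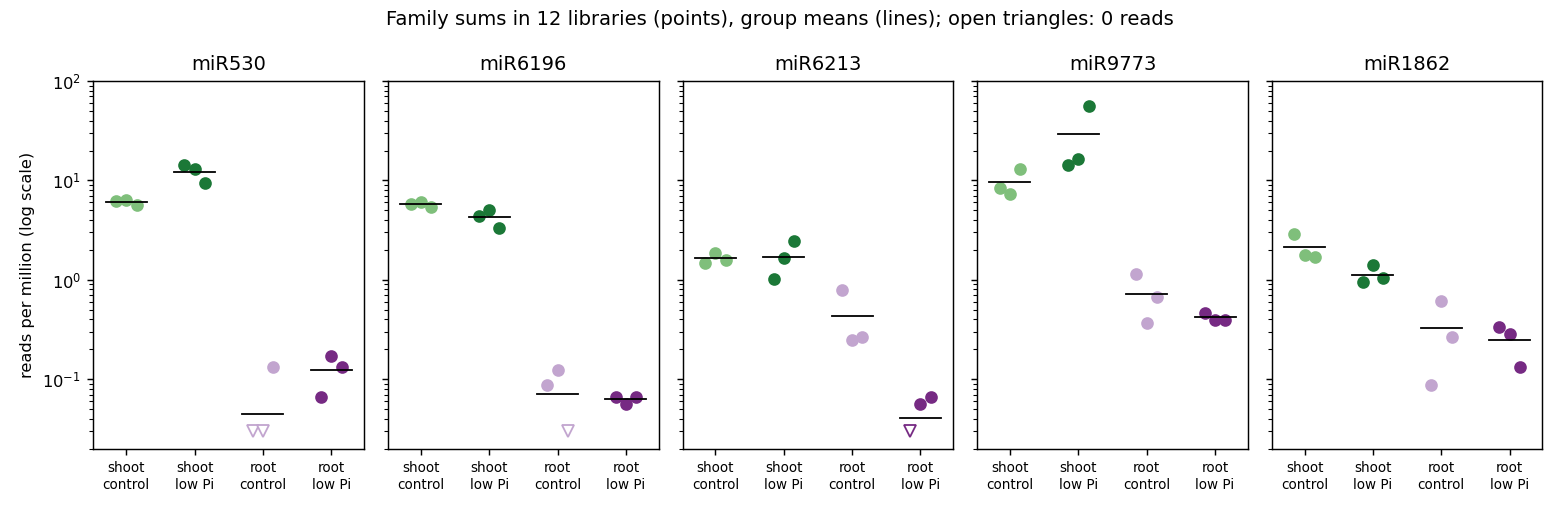
RPM of each family (log axis) in the 12 libraries, grouped by organ and phosphate supply. Points are libraries, lines are group means and open triangles at the bottom are libraries with 0 reads. Every shoot point lies above every root point of its family, and 1 shoot low-Pi point of miR9773 stands at 56.2 RPM.

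The order of the organs depended on the denominator for miR6213 and miR1862. Taken per 1000000 reads with a miRBase match, 3 of 5 families (miR530, miR6196 and miR9773) still had every shoot library above every root library, against 20 of 101 families (19.8%). On that scale the shoot to root ratio of miR6213 under control was 0.990, and that of miR1862 under low-Pi was 0.926. miR530 remained at 47.2 under control and 20.5 under low-Pi, miR6196 at 22.5 and 14.3, and miR9773 at 3.51 and 13.3. Shoot enrichment of miR6213 and miR1862 therefore held relative to all reads but not, in each condition, relative to miRBase-matched reads.

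By the levels in shoot control, miR9773 (9.64 ± 3.09 RPM), miR530 (6.04 ± 0.349) and miR6196 (5.77 ± 0.298) came first, followed by miR1862 (2.13 ± 0.674) and miR6213 (1.66 ± 0.200) (SD, n = 3). miR530 and miR6196 were neighbours within their spread, as were miR1862 and miR6213. Under low-Pi, miR9773 (29.0 ± 23.6 RPM, or a mean of 15.4 without replicate 6) and miR530 (12.2 ± 2.50) were followed by miR6196 (4.28 ± 0.902), miR6213 (1.71 ± 0.721) and miR1862 (1.13 ± 0.234). Under low-Pi, unlike control, the ranges of miR530 and miR6196 did not meet, with every low-Pi library of miR530 above every one of miR6196.

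The response to low-Pi was not used to choose the families and was tested in each organ. In shoot all 5 families passed the filter on low counts, and none of the 5 was called by edgeR at an adjusted p of 0.05, against 3 of 65 families tested (4.62%). At an unadjusted p of 0.05, edgeR gave 3 of the 5 (miR530, miR9773 and miR1862) against 13 of 65 families (20%). DESeq2 called 2 of the 5 (miR530 and miR9773) against 11 of 65 families (16.9%). The low-Pi and control libraries did not overlap for 4 of the 5 families, against 16 of 65 families (24.6%), with miR530 and miR9773 higher and miR6196 and miR1862 lower under low-Pi.

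miR530 stood at 14.2, 12.9 and 9.37 RPM in shoot low-Pi and at 6.19, 6.29 and 5.64 RPM in shoot control. Its log2 change was 1.01 ± 0.26 (SE), with an edgeR adjusted p of 0.0665. Without shoot low-Pi replicate 6 the change was 1.16 with an adjusted p of 0.00812, with DESeq2 it was 0.95 with 0.00218, and with the miRBase-matched reads as library size it was 1.20 with 0.0346. These settings called 6 of 65 (9.23%), 11 of 65 (16.9%) and 6 of 64 families (9.38%). Over all its alternatives the adjusted p ran from 0.00218 to 0.208. Relative to the median of all families, which lay between -0.08 and 0.21 under the 4 scalings, the change of miR530 was 0.97 to 0.99.

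The family sum of miR9773 was not called by edgeR with the filter on low counts. Its shoot levels were 14.3, 16.6 and 56.2 RPM under low-Pi and 8.42, 7.35 and 13.2 RPM under control, and the log2 change was 1.59 ± 0.55 (edgeR adjusted p = 0.127). Leaving out shoot low-Pi replicate 6 gave 0.68 (adjusted p = 0.134). The call was made by DESeq2 (1.53, adjusted p = 0.0486) and by edgeR without a filter (1.59, adjusted p = 0.00516), both with that library. Without a filter 7 of 181 families (3.87%) were called, and over all alternatives the adjusted p ran from 0.00516 to 0.416.

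The pair of families with lower values under low-Pi was not called in any alternative that gave an adjusted p. miR1862 was at 0.956, 1.40 and 1.04 RPM under low-Pi and at 2.91, 1.80 and 1.69 RPM under control, a log2 change of -0.92 ± 0.34 (edgeR adjusted p = 0.149). miR6196 was at 4.44, 5.10 and 3.31 RPM under low-Pi and at 5.81, 6.04 and 5.45 RPM under control, a log2 change of -0.43 ± 0.26 (edgeR adjusted p = 0.406). The gap between the groups of miR6196 was narrow, since its highest low-Pi library was at 5.10 RPM and its lowest control library at 5.45 RPM. miR6213 overlapped between groups, with a log2 change of 0.02 ± 0.36 (edgeR adjusted p = 0.964) that changed sign under other scalings.

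**Figure D2:**
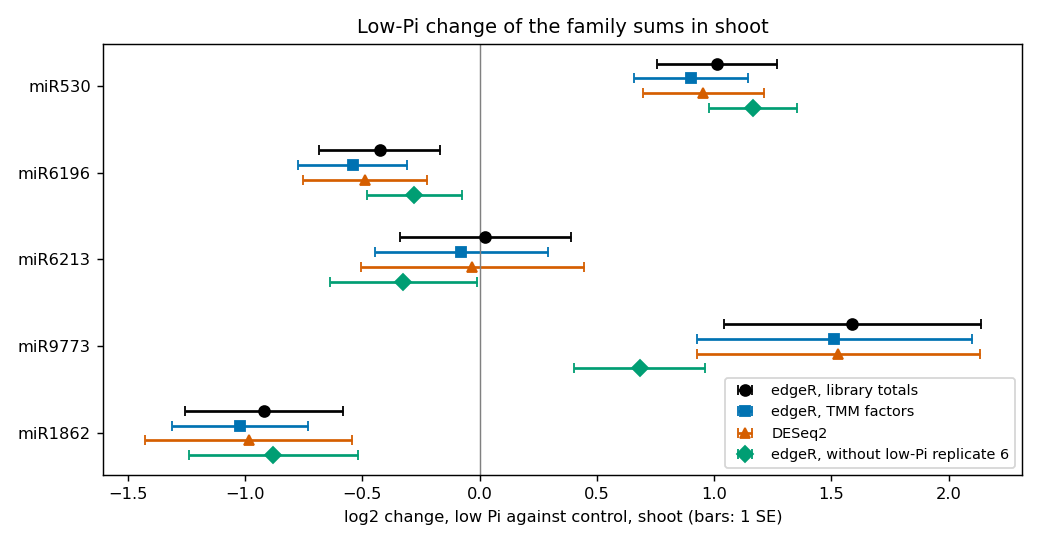
Log2 change of each family sum in shoot, low-Pi against control, with 1 SE, from edgeR with library totals (the reported values), with TMM factors, from DESeq2, and without shoot low-Pi replicate 6. miR530 stays near 1 in each setting, while miR9773 falls from 1.59 to 0.68 without that library.

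Single sequences were tested as well, since a family sum can hide changes in its forms. Of the 115 member sequences, 4 passed the filter in shoot and none in root. Of these 4, edgeR called 2, both higher under low-Pi, against 51 of 484 shoot sequences (10.5%) called in either direction, 45 higher and 6 lower. The low-Pi and control libraries of these 2 did not overlap, as was the case for 136 of the 484 sequences.

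The leading miR530 sequence (cTGCATTTgcacctgcaccta) was at 12.6, 12.1 and 8.04 RPM in shoot low-Pi and at 5.22, 5.31 and 5.45 RPM in shoot control. The control libraries were close together, and each low-Pi library was above them all. The log2 change was 1.04 ± 0.28 with an edgeR adjusted p of 0.0338. The size of the change was 0.92 to 1.21 whichever library was left out, but the adjusted p went past 0.05 on omitting low-Pi replicate 4 (0.129), low-Pi replicate 5 (0.112) or any control, namely replicate 16 (0.145), 17 (0.121) and 18 (0.104), and with no filter (0.0830). Leaving out low-Pi replicate 6 gave 0.00716.

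The wheat mature miR9773 sequence (tTTGTTTTtatgttattttgtgaa) had 17, 17 and 22 reads in shoot low-Pi and 1, 1 and 7 in shoot control. In RPM the low-Pi libraries were at 1.16, 1.40 and 2.08, all above the controls at 0.0745, 0.0816 and 0.658, and replicate 6 was the highest. The log2 change was 2.55 ± 0.67 (edgeR adjusted p = 0.0321). It was 4.13 without control replicate 18 (0.00717), and the call was lost without low-Pi replicate 6 (2.29, adjusted p = 0.0800), control replicate 16 (2.07, 0.164) or control replicate 17 (2.12, 0.127).

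The leading miR9773 sequence (tTTGTTTTtatgttattttgtgaag), which carries 1 more base at the 3′ end, behaved less evenly. It had 153, 150 and 500 reads in shoot low-Pi and 93, 76 and 116 in shoot control. In RPM the groups overlapped, with a lowest low-Pi library at 10.4 and a highest control at 10.9. Its log2 change of 1.54 ± 0.52 was not called (edgeR adjusted p = 0.0831), and it was 0.51 without low-Pi replicate 6 (adjusted p = 0.251). It was called by edgeR without low-Pi replicate 4 (1.90, 0.0255) or 5 (1.85, 0.0180), by DESeq2 (1.53, 0.0414) and without a filter (1.54, 8.29e-05), where 60 of 484 (12.4%) and 67 of 4430 sequences (1.51%) were called. The 500 reads of replicate 6 made up most of the 594 reads of the family in that library.

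The leading miR6196 sequence (aGGACGAGgagatggagagga) was at 4.23, 4.93 and 3.03 RPM in shoot low-Pi and 5.07, 5.63 and 4.89 RPM in shoot control, and these ranges overlapped. Its log2 change was -0.35 ± 0.30 (edgeR adjusted p = 0.577).

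**Figure D3:**
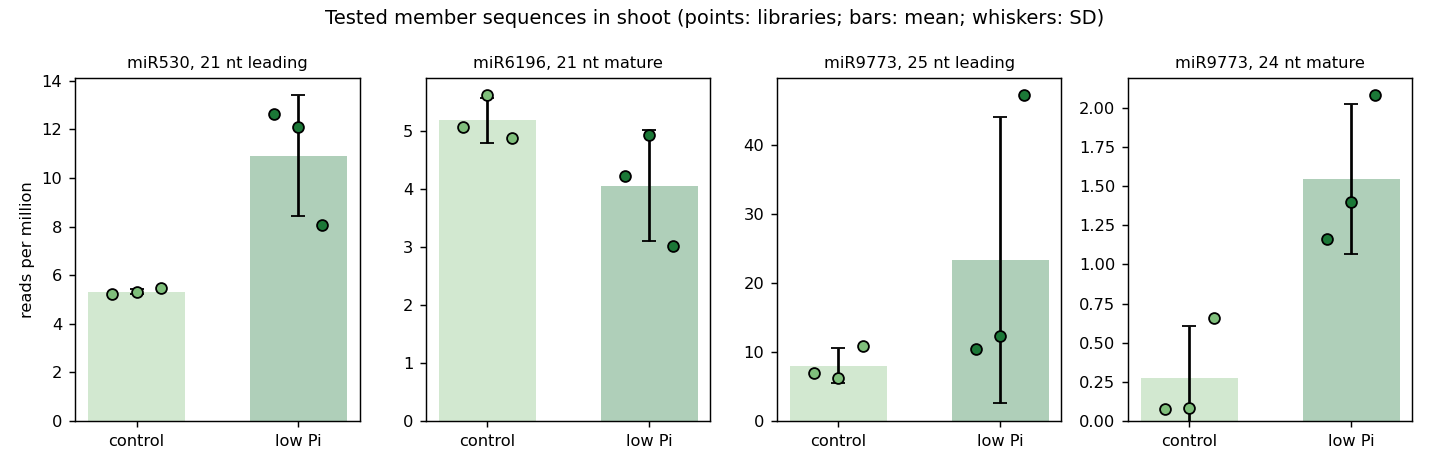
RPM in shoot of the 4 member sequences that passed the filter, under control and low-Pi. Points are libraries, bars are means and whiskers are the SD (n = 3), cut at 0 in the last panel, and each panel has its own scale. The leading miR530 sequence and the 24 nt miR9773 sequence separate the groups, as do 136 of all 484 sequences tested in shoot. The mean of the 25 nt miR9773 sequence is drawn up by 1 library.

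In root none of the 5 families passed the filter, against 53 families that did, of which 20 (37.7%) were called. With no filter, miR6213 was called lower under low-Pi by edgeR (log2 change -3.19 ± 1.01, adjusted p = 0.0204), against 19 of 162 families called (11.7%). This rested on 9, 2 and 2 reads against 0, 1 and 1. Without a filter the median root family had a log2 change of -0.45, and 14 of the 19 calls were lower. The other 4 families were not called in root, with log2 changes of 1.51 for miR530, -0.83 for miR9773, -0.27 for miR1862 and -0.20 for miR6196.

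The difference of the low-Pi response between organs was tested as an interaction over all 12 libraries, with 81 families tested. It was called for 2 of the 5 families, against 13 of 81 families (16%), all 13 with the more positive response in shoot. That direction depended on the scaling, with 1 family higher in shoot and 3 lower with TMM factors, 2 and 2 with annotated table totals, and 6 and 3 with DESeq2. miR6213 had a shoot minus root difference of 3.22 ± 1.0 on the log2 scale (edgeR adjusted p = 0.0306) and miR9773 one of 2.42 ± 0.79 (adjusted p = 0.0390). The median family had a difference of 0.67, so relative to it these were 2.55 and 1.75. Both calls were lost with TMM factors, with which the median was -0.37 and 4 of 81 families (4.94%) were called (miR6213 2.40, adjusted p = 0.321, and miR9773 1.40, adjusted p = 0.419). Over the alternatives the adjusted p ran from 0.0219 to 0.321 for miR6213 and from 0.00818 to 0.419 for miR9773. The remaining families had differences of -0.66 ± 0.88 (miR1862), -0.50 ± 0.95 (miR530) and -0.23 ± 1.39 (miR6196) and were not called.

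The families differed sharply in length and first base, features the choice of members did not use. Over all miRBase-matched reads of the 12 libraries, 77.4% were 21 nt long, 82.8% began with T and 7.32% carried the match type precursor, which also takes in some strongly trimmed mature forms. miR530 and miR6196 were mainly 21 nt long (94.6% and 92.0% of their reads), but miR530 began with C in 92.3% and miR6196 with A in 95.5%. Among all reads, C and A came first in 9.32% and 2.82%. miR6213 was 24 nt long in 59.6% of reads and 23 nt in 22.1%. miR9773 was 25 nt long in 84.2% of reads and began with T in 98.0%.

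Of the 4097 reads of 25 nt in all annotated tables, 1170 (28.6%) belonged to miR9773. Of these, 500 were reads of the leading sequence in shoot low-Pi replicate 6, and the share without that library was not computed. Reads of 25 nt were 0.0783% of all annotated reads, and 25 nt was the longest length kept, so longer forms of miR9773 could not be seen.

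**Figure D4:**
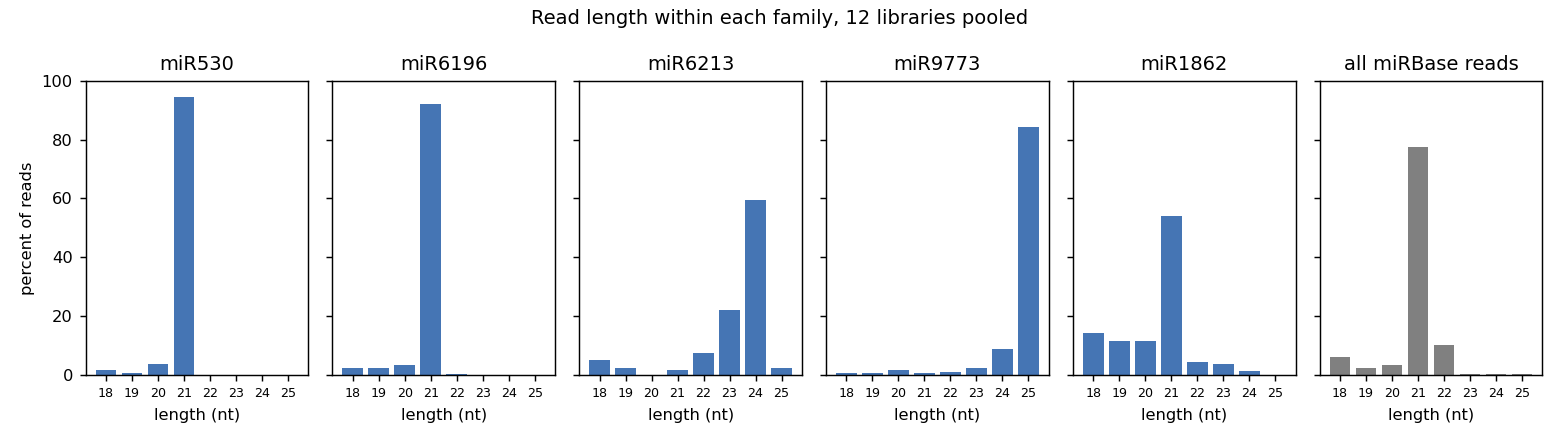
Read length in nt (horizontal axis) against the percent of reads (vertical axis) for each family and, in grey, for all reads with a miRBase match, 12 libraries pooled. miR530 and miR6196 peak at 21 nt like all reads, miR6213 at 24 nt and miR9773 at 25 nt. miR1862 also peaks at 21 nt (53.9% of reads), with 11.3% to 14.2% at each of 18, 19 and 20 nt.

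miR530 was made up of 15 sequences with 691 reads, of which the leading sequence held 616 (89.1%). This sequence is the rice mature miRNA with 1 more base at its 5′ end, so its seed is TGCATTT instead of GCATTTG. Reads with the first seed numbered 628 and those with the second 24. The 5′ arm of the hairpin gave 664 reads and the 3′ arm 22. The names came from rice, Brachypodium, wheat, peach and melon entries.

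miR6196 was made up of 12 sequences with 377 reads, and 345 (91.5%) were exactly the barley mature sequence. It was the member family closest to its miRBase annotation. Its other sequences had between 1 and 8 reads each.

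miR6213 had 16 sequences with 136 reads, none of them exactly the barley mature sequence. The leading 24 nt sequence had 61 reads (44.9%) and the 23 nt form, which lacks its first base, 25. The few reads of these 2 forms fell differently over the groups. The 24 nt sequence had 11, 11 and 7 reads in shoot low-Pi, 6, 6 and 7 in shoot control, 8, 2 and 2 in root control and 0, 0 and 1 in root low-Pi. The 23 nt form had 0, 6 and 3 reads in shoot low-Pi, 6, 5 and 5 in shoot control and none in the 6 root libraries. These 2 forms did not pass the filter, so the values stand without a test.

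miR9773 had 36 sequences with 1389 reads. The leading sequence held 1121 reads (80.7%), the wheat mature sequence 66 and the form shifted by 1 base at its 5′ end 47. The seed TTGTTTT was carried by 8 sequences with 1212 reads. The shifted form had 8, 8 and 16 reads in shoot low-Pi and 3, 2 and 7 in shoot control. In RPM the groups met, since control replicate 18 was at 0.658 and low-Pi replicates 4 and 5 at 0.546 and 0.657.

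miR1862 was the most heterogeneous family, with 36 sequences for 141 reads and a leading sequence of 27 reads (19.1%). All of its reads carried the match type precursor of rice entries, and none was matched as the mature miRNA or a length variant of it. The leading sequence had 3, 5 and 2 reads in shoot low-Pi and 8, 4 and 3 in shoot control, and the shifted form 0, 3 and 1 against 6, 5 and 3. In RPM the leading sequence overlapped between the groups, whereas the shifted form was at 0 to 0.247 in the low-Pi libraries and at 0.282 to 0.447 in the controls. The nearest libraries, low-Pi replicate 5 and control replicate 18, held 3 reads each and differed only through their library totals. Neither form passed the filter, and 331 of all 4430 shoot sequences showed no overlap between the groups.

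The miR1862 reads included sequences complementary to each other. By shared stretches of 10 bases, 28 sequences with 125 reads (88.7%) ran in the direction of the leading sequence, and 8 sequences with 16 reads (11.3%) were complementary to it. The complementary sequence with most reads, 5 in all, is shown because it pairs with the shifted form, and it was chosen after its values were seen.
miR1862, complementary sequence: aCTCCCTCcgtcccaaaataagt
All 21 bases of the shifted form (tTATTTTGggacggagggagt) pair with it, and it extends 2 bases further at its 3′ end. The names differed, with MIR1862c for the complementary sequence and MIR1862a, MIR1862d and MIR1862e for the shifted form, so the pair was not matched to the same rice entry. Reads of the complementary direction numbered 7 in shoot low-Pi, 3 in shoot control, 6 in root low-Pi and 0 in root control. Those of the leading direction numbered 35, 76, 6 and 8. With so few reads these were not tested.

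The share of the leading sequence was compared between conditions in the 3 families with enough reads in every shoot library. The leading sequence held 89.5 ± 3.91% of miR530 reads under low-Pi and 88.5 ± 7.10% under control (SD, n = 3, exact permutation p = 0.8, two-sided). For miR6196 the shares were 94.5 ± 2.77% and 90.0 ± 3.05% (n = 3, exact permutation p = 0.2). For miR9773 they were 77.2 ± 6.05% and 83.2 ± 1.11% (n = 3, exact permutation p = 0.3). Its low-Pi libraries were at 73.2%, 74.3% and 84.2% and its controls at 82.3%, 84.4% and 82.9%, so without low-Pi replicate 6 the groups did not overlap and the difference went from -5.99 to -9.47 percentage points. With 3 libraries against 3 the smallest p possible is 0.1, so no such comparison could pass 0.05.

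As a description, the family sums were set beside those of all other families with at least 30 reads (96 families) by Pearson's r of log2(RPM + 0.5) over the 12 libraries, in which the organ difference dominates. miR530 was most like miR156, a regulator of SPL transcription factors (r = 0.986), and miR6201 (0.986). miR6196 was most like miR5052 (0.993) and miR5168 (0.988). miR6213 was most like miR5048 (0.976) and miR168, which targets the Argonaute gene AGO1 (0.972). miR9773 was most like miR9674 (0.962) and miR7757 (0.960). miR1862 was most like miR167, a regulator of auxin response factors (0.961), and miR5538 (0.946).

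Over the 6 shoot libraries alone most of these values were lower, at 0.442 for miR6196 with miR5052 and 0.630 for miR9773 with miR9674. miR1862 with miR167 stood at 0.981. miR167 was at 4009 RPM in shoot control and 2509 RPM in shoot low-Pi as group means, so its mean was lower under low-Pi as that of miR1862 was, at far higher levels. Neither change was called by edgeR, with a log2 change of -0.68 (adjusted p = 0.102) for miR167 and -0.92 (adjusted p = 0.149) for miR1862.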

How the data were processed

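Small RNAs were isolated from root and shoot, made into libraries with the TruSeq small RNA kit and sequenced on an Illumina instrument. In CLC Genomics Workbench (version not given in the sources used here) the authors trimmed the reads, kept 18 to 25 nt, collapsed identical reads and matched them to miRBase release 22 without mismatches and by strand. The authors deposited, for each sequence and library, a count of reads and its RPM, the count per 1000000 kept reads. Library totals were recovered as count over RPM. Left out were 12 deposited columns that hold the same counts again, the authors' fold changes and p-values, and their tables of sequences without a miRBase match, in which no member was named.

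Counts were summed by the number in the miRBase name and tested with edgeR 4.0.16 in R 4.3.3 (quasi-likelihood test, recovered totals as library sizes, filterByExpr at a minimum count of 10, Benjamini-Hochberg over all features tested, threshold 0.05). The interaction used all 12 libraries. Scripts were tested on simulated data. Alternatives were TMM factors, totals of the annotated tables, DESeq2 1.42.0, no filter, mature matches only, leaving out each library, and the replicate number as a block. Plots and summaries used Python 3.11.15. Sequences were printed for the leader of each family and up to 2 more with at least 20 reads, with exceptions named in the text. The context lists were miRBase numbers 6176 to 6214 (barley), 1846 to 1884 (rice), and 9652 to 9683 with 9772 to 9783 (wheat). The members and lists were chosen with earlier results of these data known. Replicates are pots, so p-values measure the spread between pots. Names are those of miRBase entries, loci that give the same sequence share its reads, and coordinates are not given because no genome was used.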

Additional observations from a re-analysis of the deposited data

Results flagged for a closer look

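The low-Pi response differed between organs for 2 families in the edgeR interaction test. For miR6213 the response in shoot minus that in root was 3.22 on the log2 scale (adjusted p = 0.0306), with pooled levels of 1.65 RPM under control and 1.63 RPM under low-Pi in shoot and of 0.482 and 0.0419 RPM in root. The call was lost without any one of 7 of the 12 libraries, with adjusted p of 0.0588 without shoot low-Pi replicate 6, 0.0595 and 0.0527 without shoot control replicates 16 and 18, 0.109, 0.0691 and 0.0508 without root low-Pi replicates 4, 5 and 6, and 0.169 without root control replicate 16. For miR9773 the difference was 2.42 (adjusted p = 0.0390), with pooled levels of 9.45 and 26.9 RPM in shoot and of 0.778 and 0.419 RPM in root. Its call was lost without any one of 8 libraries, with adjusted p of 0.0788 without shoot low-Pi replicate 6, 0.0731 and 0.0900 without shoot control replicates 16 and 17, 0.0935, 0.143 and 0.0902 without root low-Pi replicates 4, 5 and 6, and 0.205 and 0.0732 without root control replicates 16 and 18. Without shoot low-Pi replicate 6 its difference was 1.52 and its pooled shoot low-Pi level 15.3 RPM.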

How the results depend on the processing

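In shoot, 3 families were called as reported, 6 with annotated table totals, 11 with DESeq2, 7 without a filter and 2 to 6 when a library was left out. In root the 20 called families became 8 with TMM factors and 13 to 24 when a library was left out. Of the 51 shoot sequences, 29 to 74 were called when a library was left out. The 103 called root sequences became 46 with TMM factors, 42 with annotated table totals, 44 with DESeq2 and 67 to 121 when a library was left out. The interaction gave 13 families, 4 with TMM factors, 4 with annotated table totals and 7 to 14 when a library was left out. TMM factors moved the split of root calls from 4 higher and 16 lower to 4 and 4, annotated table totals to 11 and 4 and DESeq2 to 11 and 6.

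The miR530 change in shoot passed the threshold with annotated table totals (1.20) and DESeq2 (0.95) and ran from 0.88 to 1.16 without 1 library. That of miR9773 passed with DESeq2 (1.53) and without a filter (1.59) and ran from 0.68 to 1.92. That of miR6213 changed sign with TMM factors (-0.079), DESeq2 (-0.031) and mature matches only (-0.19), and ran from -0.32 to 0.30 without 1 library. For miR1862 and miR6213 DESeq2 gave no adjusted p. The miR6213 interaction missed the threshold with TMM factors (2.40), annotated table totals (2.88), DESeq2 (2.97) and no filter (3.21), and ran from 2.39 to 3.57 without 1 library. That of miR9773 missed it with TMM factors (1.40), annotated table totals (1.85) and DESeq2 (1.86), and ran from 1.52 to 2.75. The interactions of miR530 (-2.78 to 0.15) and miR6196 (-0.65 to 0.20) changed sign without 1 library. The leading share of miR530 differed by 1.0 percentage points, and by -1.07 to 5.10 without 1 library. With annotated table totals the shoot to root ratio was 20.5 for miR530 under low-Pi, 0.990 and 8.07 for miR6213 under control and low-Pi, 3.51 for miR9773 under control, and 2.12 and 0.926 for miR1862 under control and low-Pi. Leaving out shoot low-Pi replicate 6, chosen after seeing the data, gave 36.6 for miR9773 under low-Pi.

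With the replicate number as a block, the interaction was 3.17 for miR6213 (edgeR adjusted p = 0.0806) and 2.14 for miR9773 (0.0306), with 10 families called. The labels give root and shoot the same numbers but do not say that they share a pot, and deviations of same-numbered libraries correlated at between -0.248 and 0.243 over 48 families, and 1 of 6 shoot libraries correlated best with the root library of their own number. The cause of these changes was not tested. Low read numbers of the members limit root most, where the 5 families had 5 to 41 reads each.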

Other observations

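Over all 210 families, 55 (26.2%) had every shoot library above every root library and 31 (14.8%) the opposite order. Of the barley series, 35 families outside the 5 had reads. Of these, 3 (miR6191, miR6197 and miR6201) had every shoot library above every root library, while 21 had the opposite order. miR6196 and miR6213 of the same series were picked for being higher in shoot, so their different order follows from the choice. For miR6213 it did not hold relative to miRBase-matched reads. In shoot 4 of these 35 families were tested and edgeR called 0 of them, against 3 of all 65 families tested. In root 12 were tested and edgeR called 0 higher and 1 lower, against 4 higher and 16 lower of all 53 families tested. Of the wheat series, 14 families had reads, and 3 (miR9662, miR9668 and miR9674) were higher in every shoot library while 4 were higher in every root library. Of these 6 were tested in shoot and 3 in root, and edgeR called 0 in either organ. The rice series had 1 other family with reads, which was not tested.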
